A study of Mus musculus with 8 samples.

Results

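Bone morphogenetic proteins (BMPs) are secreted ligands whose receptors phosphorylate SMAD transcription factors, and 10 genes of this pathway were followed through acute removal of METTL3 from mouse retinal organoids. The genes were taken by symbol: the inhibitor of differentiation genes Id1, Id2, Id3 and Id4, the inhibitory SMAD genes Smad6 and Smad7, the ligand genes Bmp4 and Bmp7, and the antagonist genes Bambi and Skil. Each symbol was found at exactly 1 locus in every deposited table, out of 35494 loci in the table for 1 h and 35541 in the tables for 8 and 24 h.

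All groups share 1 cell line, Rx:GFP, with a reporter at the Rx gene and FKBP12F36V-HA joined to the C terminus of METTL3 at both endogenous alleles, grown as organoids in medium that contained AGN at 0.1 µM. METTL3 is the catalytic subunit that writes N6-methyladenosine on messenger RNA, and the tag makes it a target of dTAG-13, a molecule that brings the tagged protein to a ubiquitin ligase. The 8 samples of polyadenylated RNA at day 6 form 4 groups of 2: untreated (0 h), and 1, 8 or 24 h of dTAG-13 at 125 nM. The labels do not say whether the untreated samples received solvent, whether the line is 1 clone, how many organoids were pooled, or whether replicates came from separate cultures. Every group carries the tag, so effects of dTAG-13 itself and of the loss of METTL3 cannot be told apart.

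In this pathway, activated SMADs enter the nucleus with SMAD4 and switch on direct targets, among them the Id genes. ID proteins carry a helix-loop-helix but no DNA-binding region, and they hold E proteins in inactive pairs. Smad6, Smad7 and Bambi are also targets, and their products dampen the signal, which makes negative feedback. In the developing eye, BMP4 and BMP7 are known for roles in the optic vesicle, the dorsal retina and lens induction.

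The tables hold a single value per condition, combined over both replicates, so no spread between replicates is visible and no test across samples could be made. The error given here is the interval deposited with each value, whose level the headers do not state. Levels are in FPKM, a fragment count corrected for transcript length and depth. A locus was tested when it reached 1 FPKM in either condition, and called when FPKM differed at least 1.5-fold (after adding 0.1 to both) and the intervals did not overlap. That rule called 0.402% of the 13690 loci tested at 1 h. The share was 4.43% of 13825 loci at 8 h, and at 24 h it was 5.48% of 13910. The estimated counts of a condition summed to between 31361500 and 32562100, after scaling by the authors' software, so the depth of single libraries is unknown. The tagged gene's own transcript was not called at any time, with Mettl3 at 19.2 FPKM (9.92 to 28.5) untreated and 19.1 (8.82 to 29.4) treated in the 1 h table, 19.4 (10.7 to 28.1) and 19.4 (10.8 to 28.0) in the 8 h table, and 19.4 (10.6 to 28.3) and 17.0 (8.50 to 25.5) in the 24 h table. Since the degron removes protein, the transcript is no check of depletion.

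One of the 10 genes was called, and it was Bambi, higher at 8 and 24 h. None was called lower at any time. At 1 h 0 of the 10 were called, by FPKM or by estimated counts. Over all tested loci, calls at 1 h were 0.117% higher and 0.285% lower. The 8 h table had 3.49% higher and 0.94% lower, and at 24 h 3.83% were higher and 1.65% were lower. A single call is the smallest number above 0 that a set of 10 can give, so the count does not set these genes apart from the background. At 1, 8 and 24 h the 10 genes had median log2 ratios of -0.14, 0.06 and 0.15, against 0.01, 0.01 and 0.02 over all tested loci. By FPKM, 4, 7 and 9 of the 10 lay above 0 at the successive times, and by estimated counts 4, 9 and 9. Of all tested loci, 51.6%, 51.3% and 52.1% lay above 0 by FPKM. All 3 comparisons use the same 0 h libraries, so their values are not independent of each other.

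**Figure D1:**
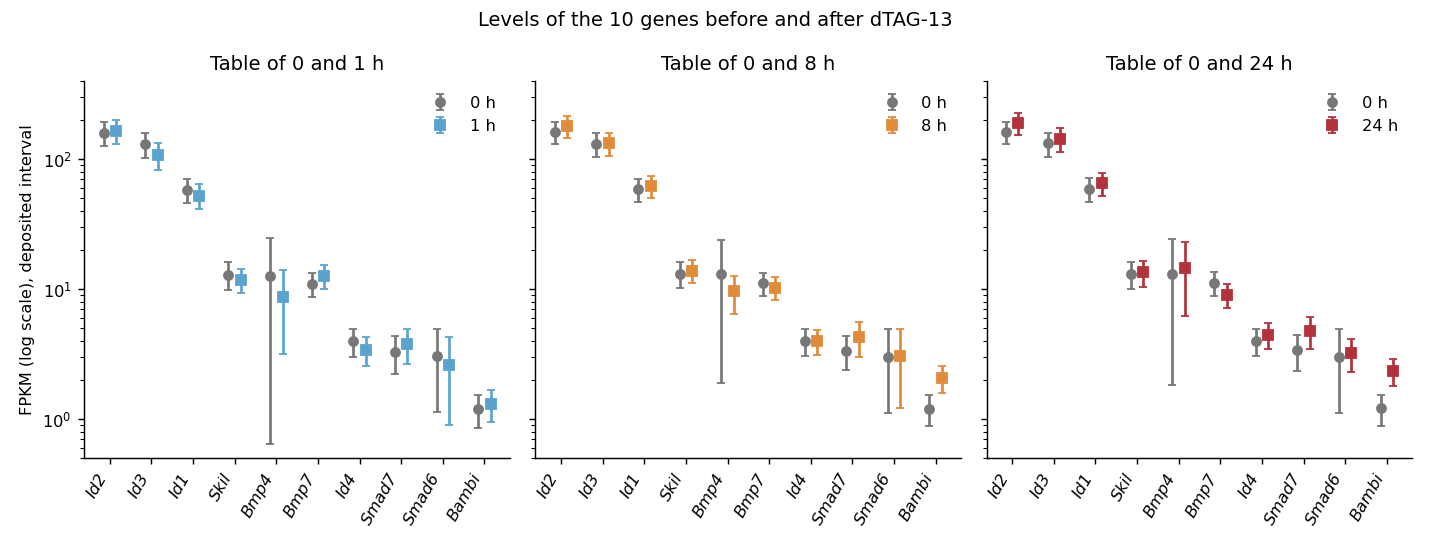
FPKM of the 10 genes on a log scale in the tables for 1, 8 and 24 h, with circles for 0 h, squares for dTAG-13, and bars for the deposited interval. Bambi is the gene whose bars separate, at 8 and 24 h, and the bars of Bmp4 at 0 h are the widest relative to the value.

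At 0 h the genes spanned 2 orders of magnitude. In the 8 h table Id2 was highest at 162 FPKM, followed by Id3 at 132 and Id1 at 59.1. Skil (13.1), Bmp4 (13.01) and Bmp7 (11.2) formed a middle group whose intervals overlapped. Id4 (3.998), Smad7 (3.38), Smad6 (3.01) and Bambi (1.21) were the lowest. Neighbours in this order had overlapping intervals except at 3 steps, from Id3 to Id1, from Id1 to Skil and from Bmp7 to Id4. Bambi's interval did not reach that of Smad7, but it overlapped that of Smad6, which was wide. Among tested loci Id2 stood at the 95.9th percentile of level and Bambi at the 5.96th. Bambi, the called gene, was thus measured on the lowest level of the set, from 198 estimated counts against 5360 for Id2.

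BAMBI is a transmembrane protein that resembles a type I receptor but lacks the kinase domain, and it blocks receptor complexes of the TGF-β family. The gene lies on the plus strand of chromosome 18 at 3507923 to 3516404 (GRCm38), with 3 exons and no other locus overlapping it in the tables. In the 1 h table Bambi was at 1.19 FPKM (0.853 to 1.53) untreated and 1.32 (0.950 to 1.69) treated. In the 8 h table it was at 1.21 (0.888 to 1.53) untreated and 2.08 (1.59 to 2.57) treated, and in the 24 h table at 1.21 (0.887 to 1.53) and 2.35 (1.81 to 2.89). The intervals overlapped at 1 h and were apart by 0.0616 FPKM at 8 h and by 0.272 FPKM at 24 h. On the log2 scale with 0.1 FPKM added, the ratios were 0.14, 0.74 and 0.90, or 1.10-, 1.67- and 1.87-fold.

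Estimated counts gave the same picture for Bambi. They were 195 and 216 in the 1 h table. At 8 h they went from 198 (deposited SD 26.1) to 339.5 (SD 40.1), and at 24 h from 196 (SD 26.2) to 379 (SD 43.7). By an interval of 2 deposited SD on the counts, Bambi was again called at 8 and 24 h, and it was again the only call among the 10. The rule on counts called 0.278%, 5.95% and 7.48% of tested loci at 1, 8 and 24 h. For Bambi the 2 rules use nearly the same interval. At 0 h in the 8 h table its FPKM half-width was 26.4% of the value, and the SD of its count was 13.2%. Both measures also come from the same libraries, so the call by counts is not separate support. The size of the change was not exceptional: 457 called loci at 8 h and 392 at 24 h had a larger absolute log2 ratio. The call at 8 h was lost with 1 FPKM added in place of 0.1, which gave a log2 ratio of 0.48, and the call at 24 h was kept at 0.60. In RNA from whole organoids, more cells that express Bambi and more RNA per cell cannot be told apart.

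**Figure D2:**
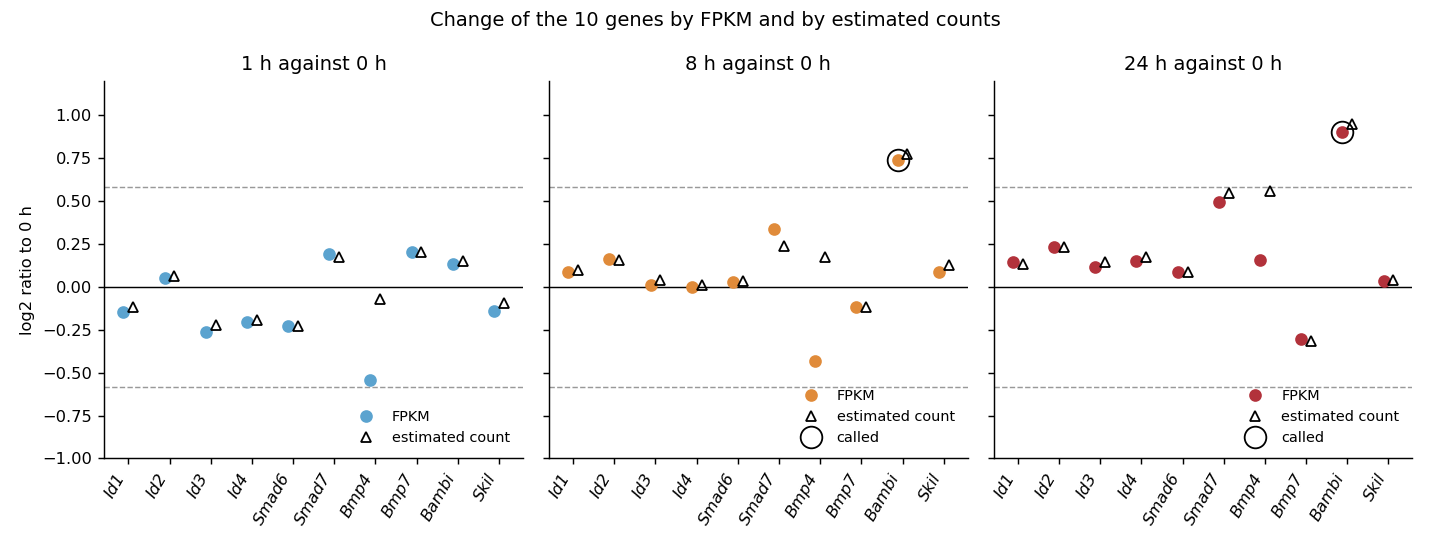
The log2 ratio to 0 h of each of the 10 genes at 1, 8 and 24 h, by FPKM (filled circles, 0.1 added) and by estimated counts (open triangles, 1 added), with dashed lines at 1.5-fold and rings on called genes. Bambi lies above the upper line at 8 and 24 h by both measures, and Bmp4 is the gene whose measures stand furthest apart.

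The inhibitory SMADs act inside the cell. SMAD7 occupies type I receptors of both the BMP and TGF-β branches and recruits SMURF ubiquitin ligases, while SMAD6 prefers the BMP branch. In the 1 h table Smad7 was at 3.32 FPKM (2.25 to 4.39) untreated and 3.81 (2.68 to 4.95) treated. It was at 3.38 (2.38 to 4.38) and 4.29 (3.003 to 5.57) in the 8 h table, and at 3.39 (2.37 to 4.41) and 4.81 (3.50 to 6.12) in the 24 h table. The treated value lay above the untreated value in all 3 tables, and the intervals overlapped in all 3. The log2 ratios were 0.19, 0.34 and 0.49 by FPKM, and 0.17, 0.24 and 0.55 by estimated counts, which went from 357 (SD 42.2) to 522 (SD 58.7) at 24 h. After Bambi, Smad7 had the next largest FPKM ratio of the set at 24 h, 1.41-fold, below the 1.5-fold limit. The half-width of its intervals in the 24 h table was 30.1% of the untreated and 27.2% of the treated value. A change of just 1.5-fold would therefore not have been called for Smad7.

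Smad6 was close to its untreated level. Its FPKM was 3.06 (1.14 to 4.98) and 2.60 (0.908 to 4.29) at 0 and 1 h, 3.01 (1.13 to 4.90) and 3.08 (1.22 to 4.94) at 0 and 8 h, and 3.03 (1.11 to 4.94) and 3.22 (2.32 to 4.11) at 0 and 24 h. The log2 ratios were -0.23, 0.03 and 0.09. The intervals of Smad6 were wide, with a half-width of 62.7% of the value at 0 h in the 8 h table, although the coefficient of variation of its estimated count was 12.4%. A 1.5-fold change of Smad6 was therefore not resolvable from FPKM.

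Id1, Id2, Id3 and Id4 encode the ID proteins and are the usual readouts of BMP signalling. None was called, and their log2 ratios ran from -0.26 to 0.05 at 1 h, from -0.00013 to 0.16 at 8 h and from 0.12 to 0.23 at 24 h. Id1 went from 58.3 FPKM (45.8 to 70.8) to 52.6 (41.2 to 64.1) at 1 h, from 59.1 (47.3 to 70.9) to 62.6 (50.2 to 75.0) at 8 h, and from 59.3 (47.3 to 71.3) to 65.6 (52.3 to 78.9) at 24 h. For Id1 the interval of each treated value held the untreated value. Its log2 ratios were -0.15, 0.08 and 0.15.

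Id2, the most abundant of the set, was at 159.8 FPKM (127 to 192) and 165 (132 to 199) in the 1 h table. It was at 162 (131 to 193) and 181 (147 to 215) in the 8 h table, and at 162 (131 to 194) and 191 (154 to 227) in the 24 h table. The log2 ratios of Id2 were 0.05, 0.16 and 0.23, and the intervals overlapped at each time. Id3 had the lowest ratio of the family at 1 h, -0.26, from 130.2 FPKM (102 to 159) to 108 (82.5 to 134). Its values were 132 (105 to 159) and 133 (106 to 159) at 0 and 8 h, and 132 (105 to 159.9) and 143 (114 to 173) at 0 and 24 h. Id4, the least abundant of the family, went from 3.97 (2.999 to 4.94) to 3.43 (2.58 to 4.28) at 1 h, from 3.998 (3.09 to 4.91) to 3.998 (3.11 to 4.89) at 8 h, and from 4.01 (3.09 to 4.93) to 4.46 (3.46 to 5.46) at 24 h. At 1 h Id1, Id3 and Id4 lay below and Id2 above their untreated values, and at 24 h all 4 lay above, in each case with overlapping intervals. The half-width of the intervals of Id1, Id2 and Id3 was 19.0% to 23.9% of the value, so changes smaller than about 1.5-fold could not be resolved for these genes. In the 1 h table the half-widths were 21.9% untreated and 23.9% treated for Id3, and 24.4% and 24.8% for Id4. A change of just 1.5-fold would not have been called for Id3 or Id4 at any time. The same holds for Id1 at 1 and 24 h and for Id2 at 1 h.

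The ligand genes gave different patterns. Bmp7 was at 11.03 FPKM (8.65 to 13.4) and 12.7 (9.96 to 15.4) in the 1 h table, at 11.2 (8.90 to 13.4) and 10.3 (8.21 to 12.4) in the 8 h table, and at 11.2 (8.91 to 13.5) and 9.04 (7.15 to 10.9) in the 24 h table. Its log2 ratios were 0.20, -0.12 and -0.31, and the intervals overlapped at each time. Bmp7 was the only one of the 10 genes with an FPKM ratio below 0 at 24 h, and its estimated counts gave the same ratio, -0.31, from 1333 to 1072.

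Bmp4 could not be read from FPKM alone. Its FPKM was 12.7 (0.647 to 24.7) and 8.66 (3.16 to 14.2) at 0 and 1 h, 13.01 (1.90 to 24.1) and 9.62 (6.49 to 12.7) at 0 and 8 h, and 13.1 (1.82 to 24.3) and 14.6 (6.25 to 22.9) at 0 and 24 h. The interval at 0 h in the 8 h table extended 85.4% of the value to each side, while the estimated count had a coefficient of variation of 11.4%. The log2 ratios by FPKM were -0.54, -0.43 and 0.16, whereas by estimated counts they were -0.07, 0.18 and 0.56. The counts of Bmp4 went from 478 to 455 at 1 h, from 485 to 548 at 8 h, and from 479.9 (SD 55.7) to 707 (SD 77.5) at 24 h. The direction at 8 h thus differed between the measures, and the largest count ratio, 1.47-fold at 24 h, was below the limit. The tables join transcripts with several start sites into the Bmp4 locus, which ended at 46390669 on chromosome 14 in the 1 h table and at 46398766 in the others. How fragments were divided among transcripts of different length was not tested. The Bmp4 locus overlapped 2 other loci, and the higher of these stood at under 0.6 FPKM at 0 h.

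Skil encodes SnoN, a corepressor that binds SMADs and is itself induced by TGF-β and activin. Skil was at 12.98 FPKM (9.85 to 16.1) and 11.8 (9.31 to 14.3) in the 1 h table, at 13.1 (10.2 to 16.1) and 13.9 (11.2 to 16.7) in the 8 h table, and at 13.2 (10.1 to 16.2) and 13.5 (10.4 to 16.6) in the 24 h table. The log2 ratios were -0.14, 0.09 and 0.04, and the treated value lay inside the untreated interval each time.

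Most of the 10 genes have a simple exon structure, a feature their choice did not use, while Bmp7 and Skil have 7 exons each. In the representative transcripts, the set had a median of 3.5 exons and 2.41 coding exon junctions per kilobase of coding sequence, against 9 exons and 6.19 junctions over 10672 tested genes. Of the 10, 8 fell in the second group of 10 equal groups of all genes by junction density, Bmp4 (0.817 per kilobase) in the first and Bmp7 (4.65 per kilobase) in the fourth. Calls in the second group were 11.7% of its genes at 8 h and 13.6% at 24 h, with medians of 0.33 and 0.30. Within it Bambi, at 2.56 junctions per kilobase, stood at the 89.9th percentile of the log2 ratio at 8 h and the 94.5th at 24 h, against the 95.9th and 97.7th among all these genes. Id1, Id2, Id3, Id4, Smad6 and Skil stood between the 18.2th and 31.96th percentile of that group at 8 h and between the 25.3th and 42.4th at 24 h. The same 6 genes lay between the 49.1th and 67.3th percentile of all genes at 8 h. Smad7 held the 51.4th percentile of that group in the 8 h table and the 71.7th in the 24 h table. These are descriptions of position, without a test.

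**Figure D3:**
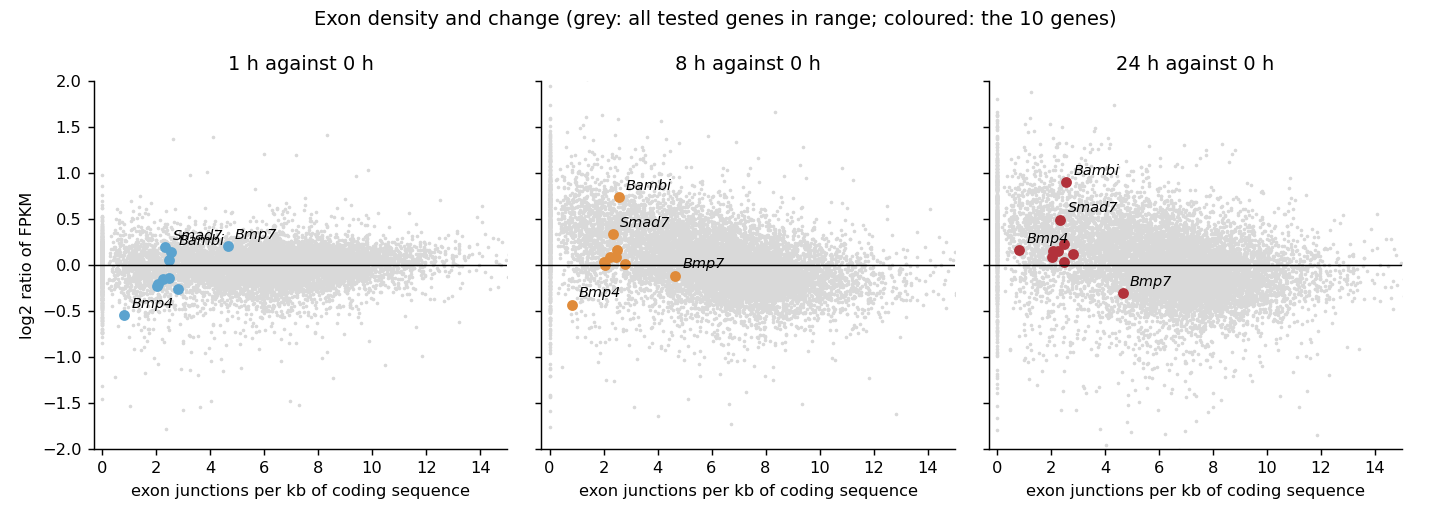
Coding exon junctions per kilobase against the log2 ratio of FPKM at 1, 8 and 24 h for tested genes within the axis range (grey) and the 10 genes (coloured). The 10 genes lie at the left, at low junction density, and at 8 and 24 h most of them lie below the centre of the grey cloud there, with Bambi above it.

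METTL3 methylates adenosine in a short consensus of which GGACT is a common form, often near the stop codon. Each of the 10 representative transcripts holds at least 2 copies of GGACT on the transcript strand, and the median over all tested genes is 3. Bambi holds 10 copies in 5074 bases, more than 94.7% of tested genes, of which 1 is in the 5′ UTR, 4 are in the coding sequence and 5 in the 3′ UTR. Per kilobase the highest values were those of Id1 (3.21), Id2 (3.15), Bmp4 (2.42) and Id3 (2.35), at the 98.4th, 98.3th, 94.2th and 93.4th percentile of tested genes, while Bambi had 1.97. The sites closest to the stop codon are shown for the 3 abundant Id genes, which were not called, and for Skil, with 10 bases to each side and GGACT in capitals. The Id1 site starts 26 bases, the Id2 site 18 bases and the Id3 site 63 bases after the first base of the stop codon, and the Skil site starts 4 bases before it. The closest sites of the other genes examined lie further away. Counted from the same base, they start at 127 in Bmp4, 1884 in Id4, -259 in Bmp7 and -1072 in Smad6. No distance was taken for Bambi and Smad7. Methylation was not measured in these files, so a copy of these letters is no evidence of a methylated site.
Id1: gggaccagatGGACTccagcccttc
Id2: tggcatttggGGACTtttttttttc
Id3: tgggaccctgGGACTctgggaccct
Skil: agccctccaaGGACTaagagctgaa

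SMAD proteins bind GTCT boxes, whose palindrome is GTCTAGAC, and BMP-activated SMADs also bind GC-rich boxes such as GGCGCC. Both strands were searched from 250 bases before to 50 after the start of transcription in RefSeq's GRCm38.p6 windows, which held 5 of the 10 genes (Id2, Id3, Id4, Smad6 and Bmp4). GTCTAGAC occurs in 0.213% of 32851 windows, and Smad6 has 1 copy that begins 4 bases before the start. GGCGCC occurs in 11.9% of windows, with 1 copy each in Id2 and Id4. The single GTCT box lies in 88.0% of windows, and GTCTAGAC contains it on both strands. The 3 windows with a palindrome or GC-rich box are printed with those letters in capitals, to show what lies at the start of these targets, none of which was called. Smad6 is at chr9:64022010-64022309 (minus strand), Id2 at chr12:25096043-25096342 (minus strand) and Id4 at chr13:48260866-48261165 (plus strand). A match is a description of letters, and binding was not measured.
Smad6: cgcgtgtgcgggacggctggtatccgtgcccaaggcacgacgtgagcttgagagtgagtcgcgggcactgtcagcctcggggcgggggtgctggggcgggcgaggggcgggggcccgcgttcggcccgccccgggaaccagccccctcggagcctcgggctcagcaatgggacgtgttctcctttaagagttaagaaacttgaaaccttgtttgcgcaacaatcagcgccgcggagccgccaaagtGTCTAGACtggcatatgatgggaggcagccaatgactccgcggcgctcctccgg
Id2: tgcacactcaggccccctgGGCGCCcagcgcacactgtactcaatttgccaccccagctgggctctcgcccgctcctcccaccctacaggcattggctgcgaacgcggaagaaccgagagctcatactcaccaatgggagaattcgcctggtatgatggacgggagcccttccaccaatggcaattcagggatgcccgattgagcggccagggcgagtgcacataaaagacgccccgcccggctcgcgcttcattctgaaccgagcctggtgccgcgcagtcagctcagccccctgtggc
Id4: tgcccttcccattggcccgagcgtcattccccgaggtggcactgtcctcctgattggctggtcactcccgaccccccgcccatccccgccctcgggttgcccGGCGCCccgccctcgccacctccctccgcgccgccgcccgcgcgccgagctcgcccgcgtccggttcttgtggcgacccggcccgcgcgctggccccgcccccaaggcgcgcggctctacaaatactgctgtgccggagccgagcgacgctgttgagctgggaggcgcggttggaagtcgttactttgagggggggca

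The rest of the pathway was described with a list of 99 other genes of the BMP and TGF-β pathway, of which 67, 69 and 68 were tested at 1, 8 and 24 h. At 1 h 0 were called, at 8 h 1 was called higher and 0 lower, and at 24 h 7 were called higher and 3 lower. Over all tested loci the shares were 3.49% higher and 0.94% lower at 8 h, and 3.83% higher and 1.65% lower at 24 h. The list was chosen with earlier results of these data known, so its count is a description. The list's median log2 ratio was -0.01, 0.12 and 0.11. Of the ligands, Gdf11, an activin-type factor that limits ganglion cell number in the retina, was called higher at 24 h, from 13.6 FPKM (10.8 to 16.3) to 20.5 (16.4 to 24.5), a log2 ratio of 0.59. Gdf11 was just above the 1.5-fold limit and lost its call with 1 FPKM added or with ratios centred on the median, each of which left 6 genes of the list called higher. None of the other 8 tested ligands was called at 24 h by FPKM. The median of the 9 was -0.53, and 6 of them lay below 0: Tgfb1 (-1.36), Lefty2 (-0.87), Bmp5 (-0.87), Lefty1 (-0.83), Nodal (-0.53) and Gdf3 (-0.09). Tgfb1 (1.03 and 0.342 FPKM at 0 and 24 h), Lefty2 (1.77 and 0.919) and Bmp5 (1.43 and 0.739) were tested only through their 0 h level. They could enter only with a ratio below 0, so the median is partly fixed by the filter. Tgfb1 and Bmp5 already had ratios of -1.13 and -1.02 at 1 h, with overlapping intervals. Estimated counts called Lefty2 lower (-1.09), and gave smaller differences for Tgfb1 (-0.42) and Bmp5 (-0.33). Bmp2 stayed below 1 FPKM in every condition.

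Genes for extracellular antagonists were called in both directions at 24 h. Nog, whose product noggin sequesters BMP4 and BMP7, rose from 1.67 FPKM (1.08 to 2.25) to 3.23 (2.31 to 4.15), a log2 ratio of 0.91. Chrdl1, which encodes a chordin-like BMP antagonist expressed in the retina, fell by 0.93 on the log2 scale, from 9.997 (7.94 to 12.1) to 5.20 (4.05 to 6.34). Smoc1, a secreted modulator needed for eye development, fell by 0.78, from 20.2 (16.2 to 24.2) to 11.7 (9.31 to 14.1). Among receptors and co-receptors, Acvr2a (0.80) and Rgma (0.72) were called higher and Tdgf1, the Nodal co-receptor gene, lower (-1.05) at 24 h. By estimated counts Rgma was not called, with a log2 ratio of 0.51. The type I receptor gene Bmpr1a was not called, at 53.3 FPKM (43.1 to 63.6) and 62.0 (50.2 to 73.7) at 0 and 24 h.

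None of the 5 tested genes for receptor-activated or common SMADs and none of the 21 to 22 tested intracellular regulators was called at any time. Smad1, which transmits the BMP signal, had the largest ratio at 8 h among the 5 tested, 0.56, from 10.5 FPKM (8.29 to 12.7) to 15.5 (12.4 to 18.6). Its intervals overlapped slightly. Smad9, below 1 FPKM and so not tested, had a ratio of 0.73. Zeb1 had a ratio of 1.38 at 24 h that cannot be read, since the deposited interval ran from 0 to 398 FPKM and its counts gave 0.46.

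Of the other known targets of the pathway, 1 of 8 tested was called higher at 8 h, where 3.49% of all tested loci were. At 24 h 3 of 8 were called higher, against 3.83% of all tested loci, and none lower, against 1.65%. With 8 genes, each call weighs heavily in such a share. Hey1, a repressor shared with the Notch pathway, was called at both times. Its untreated and treated levels were 4.25 FPKM (3.17 to 5.33) and 8.03 (6.24 to 9.82) in the 8 h table, a log2 ratio of 0.90, and 4.26 (3.17 to 5.36) and 8.41 (6.51 to 10.3) in the 24 h table, a ratio of 0.96. At 24 h the T-box genes Tbx2 (1.11) and Tbx3 (0.96), which are known in the dorsal retina downstream of BMP4, were also called. Tbx2 rose from 2.35 (1.75 to 2.96) to 5.18 (4.02 to 6.34) and Tbx3 from 2.83 (2.05 to 3.62) to 5.61 (4.23 to 6.99). Msx2 had ratios of 0.69 and 0.80 at 8 and 24 h with overlapping intervals, and Msx1 had -0.22 and -0.41.

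**Figure D4:**
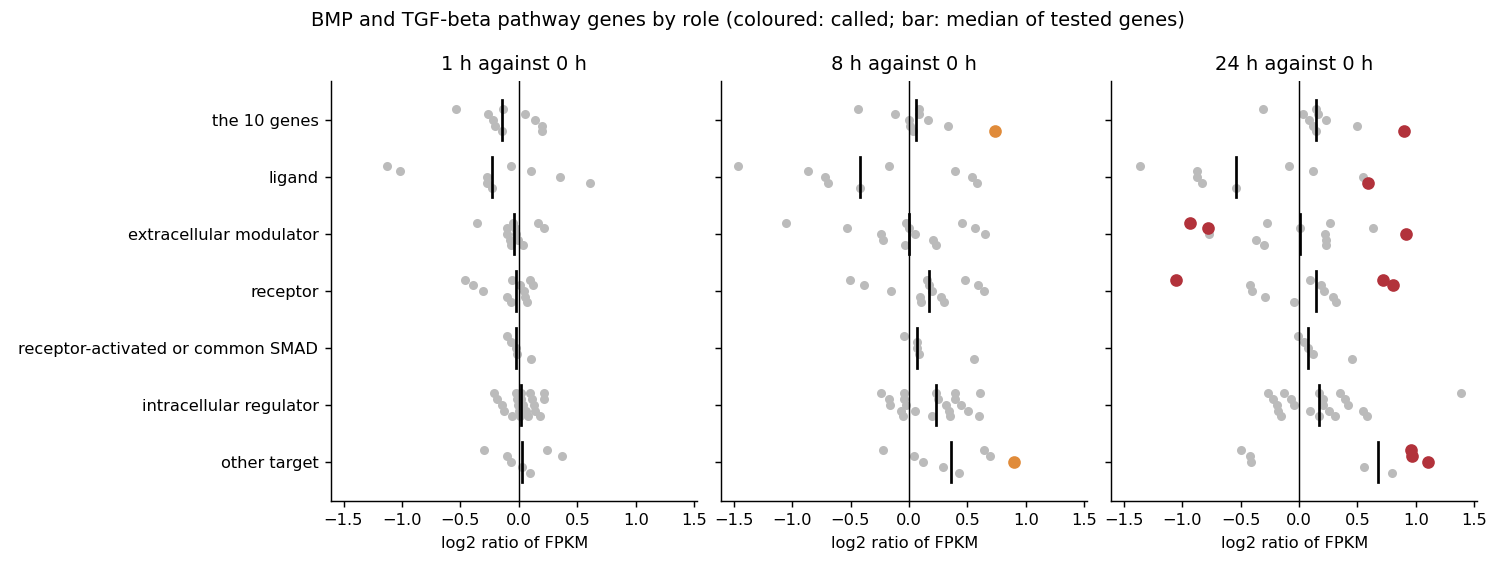
The log2 ratio of FPKM at 1, 8 and 24 h for tested genes of the set of 10 and of the pathway list by role, with called genes coloured and the median of each role as a bar. No gene is coloured at 1 h, Bambi and Hey1 are at 8 h, and at 24 h calls lie on both sides of 0 among extracellular modulators and receptors.

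Of the markers of cell types that such organoids could hold, 1 of 28 tested was called at 8 h and 6 of 28 at 24 h, against 4.43% and 5.48% of all tested loci. Of 8 eye field and retinal progenitor markers, 7 had a locus of their own at 24 h, with 2 called higher, Rax (0.66) and Lhx2 (0.69), and their summed level was 559 FPKM at 0 h and 748 at 24 h. The 7 markers of lens and surface ectoderm had 2 called lower at 24 h, Cryab (-1.78) and Krt8 (-0.76), and a sum of 60.01 and 39.9 FPKM. The uncalled Krt18 (-0.46) and the untested Cryaa (-0.40) also lay below 0. Prox1 (0.0035, uncalled) and the untested Foxe3 (0.10) and Tfap2a (0.34) lay above 0. The 6 pluripotent cell markers had 1 called lower, Dppa5a (-0.88), with a sum of 288 and 191. Most of that difference is Dppa5a itself, at 200.4 and 109 FPKM, while the uncalled Zfp42 (0.18) and Klf4 (0.33) lay above 0. Of the retinal neuron markers, Crx was called higher at 8 h (1.05) and 24 h (1.31), and the sum over 5 of 7 was 3.23 and 5.03 FPKM at 0 and 24 h. Crx alone went from 1.34 to 3.49 FPKM, more than the difference of the sums, while the uncalled Elavl4 (-0.27) and the untested Isl1 (-0.15) and Nrl (-0.32) lay below 0. No marker of pigment epithelium, optic stalk, telencephalon, or mesoderm and endoderm was called by FPKM, while estimated counts called Pmel (1.11) and Sox17 (1.22) higher at 24 h. Their sums at 0 and 24 h were 60.2 and 97.3, 37.3 and 30.9, 20.8 and 21.8, and 3.90 and 5.65 FPKM. At 1 h no marker was called. Tyr and Pou4f2, which define pigment cells and retinal ganglion cells, were listed at 0 at 0 h. The part of cell composition in the levels of Bambi, Nog, Hey1, Tbx2, Tbx3 and the other called genes was not tested.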

How the data were processed

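Polyadenylated RNA of 8 organoid samples was assigned to 4 groups of 2 by title. Tables come in 3 pairs (0 h with 1, 8 or 24 h). Per the file headers, one of each pair gives FPKM and the bounds of an interval. The other gives estimated counts, also made by the authors, with their variances. The submitters' processing notes name Cufflinks 2.2.1, Cuffdiff and mm10. The aligner, the annotation, the strandedness and the interval level are not given in the sources used here. Replicates were pooled into 1 column per condition before deposit, so no count model was fitted. The labels mention repeated library preparation, which the columns do not separate.

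The log2 ratio was formed within each table with a pseudocount of 0.1 FPKM, as tables were normalized separately, and understates changes of low genes. Loci with a status other than OK in the FPKM columns (10, 7 and 9) were left out. Unnamed loci (1.03% to 1.11% of counts) stayed in the totals. For estimated counts, 1 was added and intervals were 2 deposited SD. List genes needed a locus with that name alone. Exon structure came from GENCODE M21 on GRCm38, with the representative transcript taken by APPRIS rank and then coding length, which 96.8% of 11021 genes had. Genes named are the 10, every list gene called at any time, Mettl3, markers, and the 3 genes closest to the member with the largest ratio. Further list genes (Bmp2, Bmp5, Bmpr1a, Smad1, Zeb1, Msx1, Msx2, Smad9, Fst, Lefty1, Lefty2, Nodal, Tgfb1, Gdf3 and the ID partner genes) were named after their values were seen. The members and lists were chosen with earlier results of these data known. Python 3.11.15, numpy 2.4.6 and pandas 2.3.3 were used.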

Additional observations from a re-analysis of the deposited data

How the results depend on the processing

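No paired analysis was possible because each column pools both replicates, and for the same reason neither replicate could be left out. Of 90 ratios of the 10 genes under a pseudocount of 1 FPKM, estimated counts or centring, 87 kept their direction and call. Adding 1 FPKM cannot change a direction or gain a call, and centring moved ratios by only 0.0063 to 0.021. Directions could thus change freely only with estimated counts, so 87 of 90 says little about stability. With estimated counts Bmp4 (0.18) and Id4 (0.0133) at 8 h turned from below to above 0, and with 1 FPKM added Bambi at 8 h fell to 0.48 and lost its call, leaving 0 of the 10 called. Requiring 5 FPKM, which Bambi does not reach, or a 2-fold change also left 0 at 8 and 24 h. The number of all loci called was 55, 612 and 762 at 1, 8 and 24 h. Without intervals it was 707, 1896 and 2371, and with a 2-fold limit it was 217 and 297 at 8 and 24 h. At 1 h it was 30 with at least 5 FPKM and 95 with no filter. For the pathway list, 2-fold left 0 higher at 8 h, and 1 higher and 1 lower at 24 h. Estimated counts gave 2 higher at 8 h (Tbx3 added) and 5 lower at 24 h (Fst and Lefty2 added). Without intervals there were 1 higher and 2 lower at 1 h, 8 higher and 5 lower at 8 h, and 10 higher and 8 lower at 24 h. A low FPKM level and a change below 2-fold limit Bambi, and wide FPKM intervals limit Bmp4 and Smad6.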

Other observations

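ID proteins act through the basic helix-loop-helix factors that they bind, and 12 such genes were listed, 3 for E proteins and 9 for other factors. Of these, 6 were tested and 0 were called at any time, by FPKM with intervals or by estimated counts. Over all tested loci the FPKM rule called 0.402%, 4.43% and 5.48% at 1, 8 and 24 h, so 0 of 6 does not set these genes apart. The E protein genes were abundant, with Tcf12 at 121 FPKM, Tcf3 at 81.9 and Tcf4 at 58.3 at 0 h in the 24 h table, and had log2 ratios of -0.00, -0.29 and 0.02 at 24 h. Neurog1, Neurog2 and Atoh7 stayed below 1 FPKM in every condition. Hes1, Hes5 and Hes6, which act with the Notch pathway, had log2 ratios of 0.27, 0.53 and 0.57 at 24 h, with overlapping intervals.

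Among 11020 other genes tested in all tables, the 3 whose log2 ratios at 1, 8 and 24 h lay closest to those of Bambi, by Euclidean distance, were Ankrd40 (distance 0.0304), Efna2 (0.0790) and Aqp11 (0.0796). Ankrd40 had ratios of 0.15, 0.76 and 0.92, and with Efna2 it was called at 8 and 24 h, while Aqp11 was not called. All of these ratios share the 0 h libraries.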
